A study of Mus musculus with 4 samples.

Results

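*Vegfa*, *Pdgfa* and *Bmp2* encode 3 secreted growth factors, and their transcripts were measured by RNA-seq in group 3 innate lymphoid cells (ILC3s) of the mouse large intestine. The genes were taken by symbol from the authors' deposited table of the comparison, in which they are 3 of 2179 listed genes. The table gives each gene's mean FPKM, which is the number of sequenced fragments scaled to transcript length and to the size of the library, in each group, so no value for a single library, no spread between libraries and no sequencing depth entered the results below. All mice, in both groups, were *Rag1*-/-, which lack mature T and B cells, and carried a GFP reporter allele by which ILC3s were sorted. The Lin-GFP+ cells were sorted from lamina propria lymphocytes of littermates, several mice were pooled for each library, and the mice were young adults of a C57BL/6 background. One group, with 2 libraries, had received PBS. The other, also with 2 libraries, had received 1 µg of α-DR3, the agonistic antibody 4C12 against death receptor 3 (DR3, encoded by *Tnfrsf25*). Cells of both groups were analysed on day 3. The comparison asks how activation of DR3 changes the ILC3 transcriptome. Pooling means that the variation between single mice was not measured.

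VEGF-A is the main growth factor of blood vessels. It acts on endothelial cells through receptor tyrosine kinases and the co-receptor neuropilin-1, and its gene is a classical target of the hypoxia-inducible factors. PDGF-A is a growth factor of mesenchymal cells and signals through PDGF receptor α, which in the intestine marks fibroblasts next to the epithelium. BMP-2 belongs to the TGF-β superfamily and signals through paired type I and type II receptors to SMAD proteins, and in the intestinal mucosa BMP signals favour differentiation of the epithelium and are held back at the crypt base by secreted inhibitors. All of these factors act as disulfide-linked dimers built on a cystine knot.

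The stretches that class these genes with their families are shown because 2 of the 3 genes share one and Bmp2 does not. They were found by translating the GENCODE M21 transcripts (GRCm38) and searching for the PDGF family and TGF-β family signatures of PROSITE. Each is printed in the direction of the coding strand, and capitals mark codons for cysteine.
Vegfa, chr17:46025401-46025439, minus strand: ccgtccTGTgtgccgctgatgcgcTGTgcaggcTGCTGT
Pdgfa, chr5:138986244-138986282, minus strand: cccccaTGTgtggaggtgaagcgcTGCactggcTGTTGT
Bmp2, chr2:133561464-133561511, plus strand: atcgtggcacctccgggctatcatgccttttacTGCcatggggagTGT
The stretches of *Vegfa* and *Pdgfa* are 13 codons long and hold 4 cysteine codons each, at the same places. They were identical at 28 of 39 bases, and 8 of the 13 encoded residues were the same. The PDGF signature requires these 8 residues, the 4 cysteines among them, so this match was set by the search. At the other positions the encoded residues differed. The whole encoded proteins were also aligned globally, from the longest coding sequence of each gene that opens with ATG. Identity over the aligned residues was 29.6% for *Vegfa* and *Pdgfa*, 33.3% for *Vegfa* and *Bmp2* and 31.7% for *Pdgfa* and *Bmp2*. By this measure the 2 genes that share the signature were no more alike than either was to *Bmp2*. These values include the signature and were not tested. The *Bmp2* stretch has 16 codons with 2 cysteine codons. Each lies within a single coding exon. The PDGF signature was found in all 8 coding transcripts of *Vegfa* and in all 4 of *Pdgfa*, and the TGF-β signature in the 1 transcript of *Bmp2*. A dibasic cleavage site, the kind of site at which proprotein convertases cut a precursor, was found once in Pdgfa and once in *Bmp2* and in none of the *Vegfa* transcripts.

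All 3 transcripts were more abundant after α-DR3 than after PBS. *Vegfa* (ENSMUSG00000023951.9) had an authors' mean of 7.14 FPKM in PBS and 15.7 FPKM in α-DR3, a difference of 8.59 FPKM and a ratio of 2.20 (log2 ratio 1.14). *Pdgfa* (ENSMUSG00000025856.9) had means of 11.7 and 23.4 FPKM, a difference of 11.7 FPKM and a ratio of 2.0 (log2 ratio 1.00). *Bmp2* (ENSMUSG00000027358.6) had means of 18.1 and 27.5 FPKM, a difference of 9.45 FPKM and a ratio of 1.52 (log2 ratio 0.61). The factor with the lowest level in PBS had the highest ratio, while the differences in FPKM were of a similar size. No test of these differences was made, since a mean of 2 libraries without its spread does not allow one. Whether a higher level came from more transcripts per ILC3 or from more cells of one kind in the sorted pool cannot be told apart in bulk RNA.

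**Figure D1:**
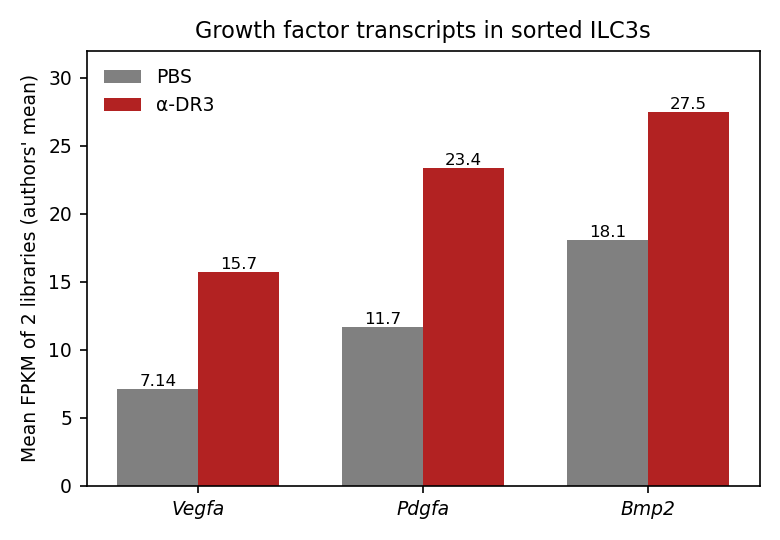
Bars give the authors' mean FPKM over the 2 libraries of each group (y axis, from 0) for the 3 genes (x axis), grey for PBS and red for α-DR3. The α-DR3 bar is the taller in each pair, 15.7 against 7.14 for *Vegfa*, 23.4 against 11.7 for *Pdgfa* and 27.5 against 18.1 for *Bmp2*, and no error bars are drawn because the table holds none.

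The order of the levels was the same in both groups, with *Bmp2* highest, then *Pdgfa*, then *Vegfa*, and the ratios between them were closer to 1 after α-DR3. FPKM is a value per transcript length, so this order rests on the lengths assigned to each gene. In CPM, which is not scaled to length, *Vegfa* was above *Pdgfa*, at a mean of 31.9 against 20.2 over all libraries. The length behind the *Pdgfa* FPKM, 1151 bases, is below its shortest coding transcript of 1287 bases. In FPKM, *Bmp2* was 2.53 times the *Vegfa* level in PBS and 1.75 times in α-DR3. Over *Pdgfa* it was 1.54 times in PBS and 1.18 times in α-DR3, and *Pdgfa* was 1.64 times *Vegfa* in PBS and 1.49 times in α-DR3. Whether neighbours in the FPKM order differ beyond the spread between libraries was not tested.

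The 3 genes were of middle abundance among the listed genes. The *Vegfa* mean was above that of 41.2% of listed genes in PBS and 62.0% in α-DR3. For *Pdgfa* these shares were 54.3% and 70.1%, and for *Bmp2* 65.6% and 73.0%. The median listed gene had 9.86 FPKM in PBS and 9.94 FPKM in α-DR3, so *Vegfa* lay below the median in PBS and above it after α-DR3.

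The table itself sets what these ratios can be compared with. Only 6 of its 2179 genes had a ratio within 10% of 1, so it holds genes that differed between the groups, and any member had to differ to be in it. After the filter of the study's methods, a mean above 5 FPKM in at least one group, 1638 genes remained. All 3 members passed it in both groups. At a limit of 1.5-fold, the 3 members were all higher in α-DR3, where 517 of the 1638 genes (31.6%) were higher and 625 (38.2%) were lower. *Vegfa* had a higher ratio than 88.7% of the 1638 genes, *Pdgfa* than 86.0% and *Bmp2* than 69.7%. Among the 874 of them with a ratio above 1, these shares were 78.8%, 73.8% and 43.1%, so *Bmp2* was below the median of the higher genes. Its ratio of 1.52 was also just inside the limit.

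**Figure D2:**
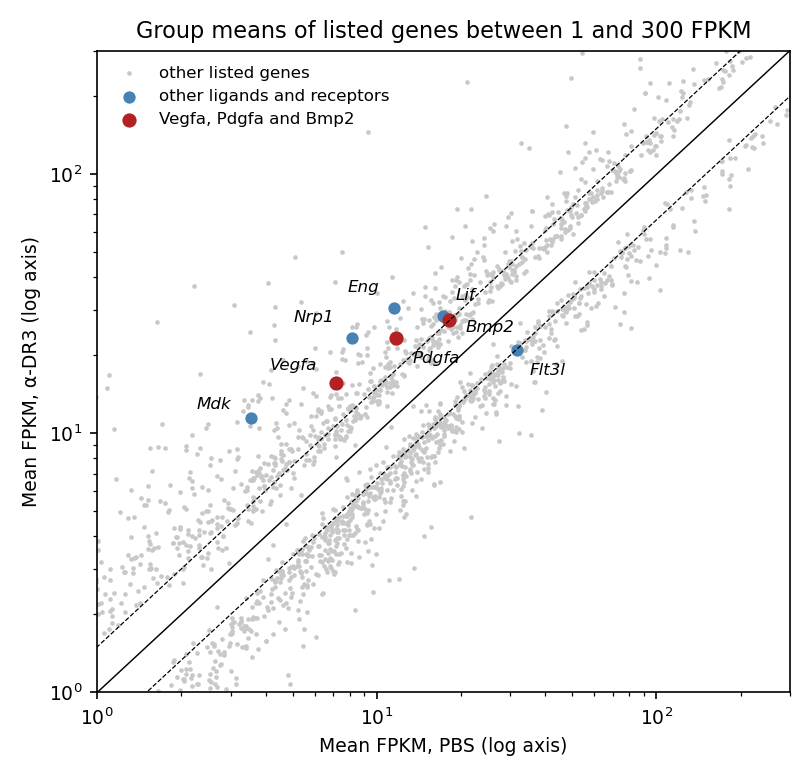
Each point is a listed gene with both means between 1 and 300 FPKM, plotted by its authors' mean FPKM in PBS (x axis, log scale) and in α-DR3 (y axis, log scale), with the solid line at equal means and dashed lines at 1.5-fold either way. *Vegfa*, *Pdgfa* and *Bmp2* (red) lie above the upper dashed line, *Bmp2* just above it, and the band around the solid line is almost empty because the table holds genes that differed.

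The size of each ratio depended on how the groups were put on one scale. The listed FPKM summed to 108959 in PBS and 153670 in α-DR3, a ratio of 1.41. *Il22*, the signature cytokine of ILC3s, made up 16.0% of that sum in PBS and 29.0% in α-DR3, and without it the ratio of the sums was 1.19. The median ratio of the 1638 genes was 1.28 (log2 0.36). Divided by this median, *Vegfa* was at 1.72 and *Pdgfa* at 1.56, both still past 1.5-fold, and *Bmp2* was at 1.19. On that scale 253 of the 1638 genes (15.4%) were higher and 760 (46.4%) lower, against 31.6% and 38.2% without it. The share of higher genes among all genes past the limit went from 45.3% to 25.0%. Divided by the sum of listed FPKM, *Vegfa* was at 1.56, *Pdgfa* at 1.42 and *Bmp2* at 1.08. The median and the sum come from genes that had to differ to be listed, so neither divisor need match the ratio of an unchanged gene. Over the 1638 genes, the 1st percentile of ratios above 1 was 1.21 and the 99th percentile of those below 1 was 0.820. Their geometric centre was 0.996. For the 837 genes with a mean over 20 FPKM in either group these percentiles were 1.23 and 0.752, with a centre of 0.960. As deposited, the gap between higher and lower genes thus lay around 1 or slightly below it.

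**Figure D3:**
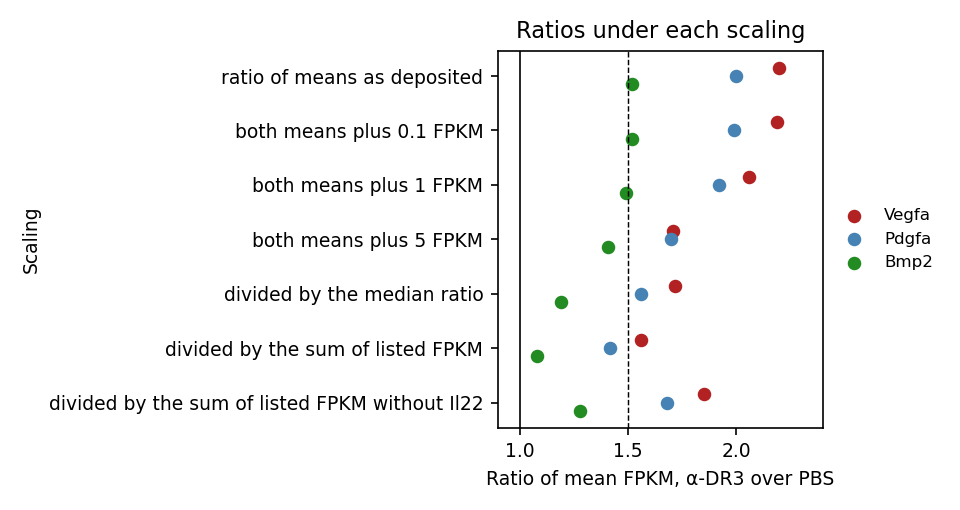
Points give the ratio of mean FPKM, α-DR3 over PBS (x axis), of *Vegfa* (red), *Pdgfa* (blue) and *Bmp2* (green) under 7 ways of scaling (rows), with the solid line at 1 and the dashed line at 1.5. *Vegfa* stays right of the dashed line throughout, from 1.56 to 2.20, *Pdgfa* falls left of it once, at 1.42, and *Bmp2* is right of it only as deposited and with 0.1 FPKM added to both means, and no point is left of 1.

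The genes closest to each factor in both means were found by the distance in log2 mean FPKM over the 2 groups. Nearest to *Vegfa* were *Slc39a14*, a zinc transporter, at 7.56 FPKM in PBS and 15.6 in α-DR3 (distance 0.083), *Rhob*, a small GTPase, at 7.17 and 17.3 FPKM (0.14), and *Ifit1*, an interferon-induced gene, at 7.16 and 14.2 FPKM (0.14). Nearest to *Pdgfa* were *Dennd3* at 11.7 and 22.9 FPKM (0.030), *Mapk10*, which encodes the kinase JNK3, at 11.9 and 23.0 FPKM (0.035), and *Tmem104* at 11.5 and 22.4 FPKM (0.069). For *Bmp2* they were *Ikbke*, an IκB kinase-related kinase, at 17.8 and 27.9 FPKM (0.026), *Dstn*, the actin-severing protein destrin, at 18.6 and 27.6 FPKM (0.044), and *Sypl*, at 18.7 and 27.8 FPKM (0.049). This likeness rests on 2 group means for each gene.

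Each factor was the single member of its ligand family in the table. Of the 6 VEGF family ligand symbols searched, *Vegfa* alone was listed, of the 4 PDGF ligands *Pdgfa* alone, and of the 14 BMP ligands *Bmp2* alone. For the genes not in the table no level is given here, and their absence from it does not show that they were silent or did not differ.

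Among the receptors, 2 co-receptors passed the filter, and both were higher after α-DR3 by more than the factors themselves. Of the 1638 genes, 31.6% were higher by at least 1.5-fold. *Nrp1*, which encodes neuropilin-1, the co-receptor that binds VEGF-A, had 8.15 FPKM in PBS and 23.3 FPKM in α-DR3, a ratio of 2.86, and was the 1 listed gene of 5 VEGF receptors. *Eng*, which encodes endoglin, a co-receptor for ligands of the TGF-β superfamily and a marker of endothelial cells, had 11.5 and 30.4 FPKM, a ratio of 2.63. *Rgmb*, another BMP co-receptor, was listed at 0.520 and 1.46 FPKM, below the filter. These were 2 of 11 BMP receptor genes, and neither of the 2 PDGF receptor genes was listed.

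The 2 genes found from the list of BMP inhibitors, which also holds general inhibitors of SMAD proteins, had deposited ratios in opposite directions. *Skil*, which encodes SnoN, an inhibitor of SMAD-dependent transcription, had 114.8 FPKM in PBS and 63.8 FPKM in α-DR3, a ratio of 0.556. *Twsg1*, whose secreted product binds BMPs, had 7.76 and 9.67 FPKM, a ratio of 1.25 that did not reach 1.5-fold and was 0.972, thus below 1, when divided by the median ratio. These were 2 of 17 inhibitor genes searched. Of 12 transducers and targets of BMP signals only *Hey1*, a target transcription factor, was listed, at 1.22 and 2.21 FPKM, below the filter. Of 9 proprotein convertase genes only *Pcsk4* was listed, at 1.14 and 0.245 FPKM, also below the filter.

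Of 55 other growth factor ligands searched, 3 were listed. *Mdk*, which encodes the heparin-binding factor midkine, was at 3.54 FPKM in PBS and 11.5 FPKM in α-DR3, a ratio of 3.25. *Lif*, a cytokine of the interleukin-6 family, was at 17.3 and 28.3 FPKM, a ratio of 1.64. *Flt3l*, the growth factor of dendritic cell precursors, was at 31.7 and 20.9 FPKM, a ratio of 0.659. Together with the 3 members, 6 of 79 ligands were listed, of which 5, the 3 members among them, were higher and 1 lower by at least 1.5-fold, where 31.6% and 38.2% of the 1638 genes were. Their median ratio was 1.82, where that of the 1638 genes was 1.28, and after division by the latter 3 were higher and 1 lower, where 15.4% and 46.4% of all genes were. The 3 members were chosen with earlier results of these data known. Of the other 3 ligands, 2 were higher and 1 lower by at least 1.5-fold, with a median ratio of 1.64.

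*Vegfa* is a classical target of the hypoxia-inducible factors, and genes of the hypoxia response were listed in both directions. Of 36 such genes 11 were listed and passed the filter, and 5 were higher and 5 lower by at least 1.5-fold, where 31.6% of the 1638 genes were higher and 38.2% lower. Their median ratio was 1.42, against 1.28 for the 1638 genes. After division by that median 4 were higher and 5 lower, where 15.4% and 46.4% of all were. *Ndrg1*, a stress-induced gene, was at 49.3 FPKM in PBS and 236.3 FPKM in α-DR3, a ratio of 4.79. *Adm*, which encodes the vasoactive peptide adrenomedullin, was at 3.75 and 14.0 FPKM, a ratio of 3.74. *Pfkfb3*, a regulator of glycolysis, was at 21.8 and 73.6 FPKM, a ratio of 3.38.

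The other higher genes of this list had ratios closer to that of *Vegfa*. *Ddit4*, an inhibitor of mTORC1, was at 29.1 and 63.4 FPKM, a ratio of 2.18. *Hif1a*, the oxygen-regulated subunit itself, was at 46.6 and 84.5 FPKM, a ratio of 1.81 that was 1.41 when divided by the median ratio. On the lower side was *Pdk1*, which encodes a kinase that inhibits pyruvate dehydrogenase, at 16.7 and 8.81 FPKM (0.526). Also lower were the histone demethylase gene *Kdm3a* at 17.0 and 10.6 FPKM (0.621) and the phosphofructokinase gene *Pfkp* at 209.1 and 130.1 FPKM (0.622). *Vegfa*, at 2.20, had a ratio between those of *Pfkfb3* and *Ddit4*.

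The signal relay below the VEGF and PDGF receptors was represented by 7 of 31 genes, 4 of them over the filter. The median ratio of these 4 was 0.999, against 1.28 for the 1638 genes. By at least 1.5-fold 0 were higher and 1 lower, where 31.6% and 38.2% of the 1638 genes were. The lower one was *Pik3r1*, the regulatory subunit of phosphoinositide 3-kinase, at 60.1 FPKM in PBS and 36.2 FPKM in α-DR3, a ratio of 0.602.

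**Figure D4:**
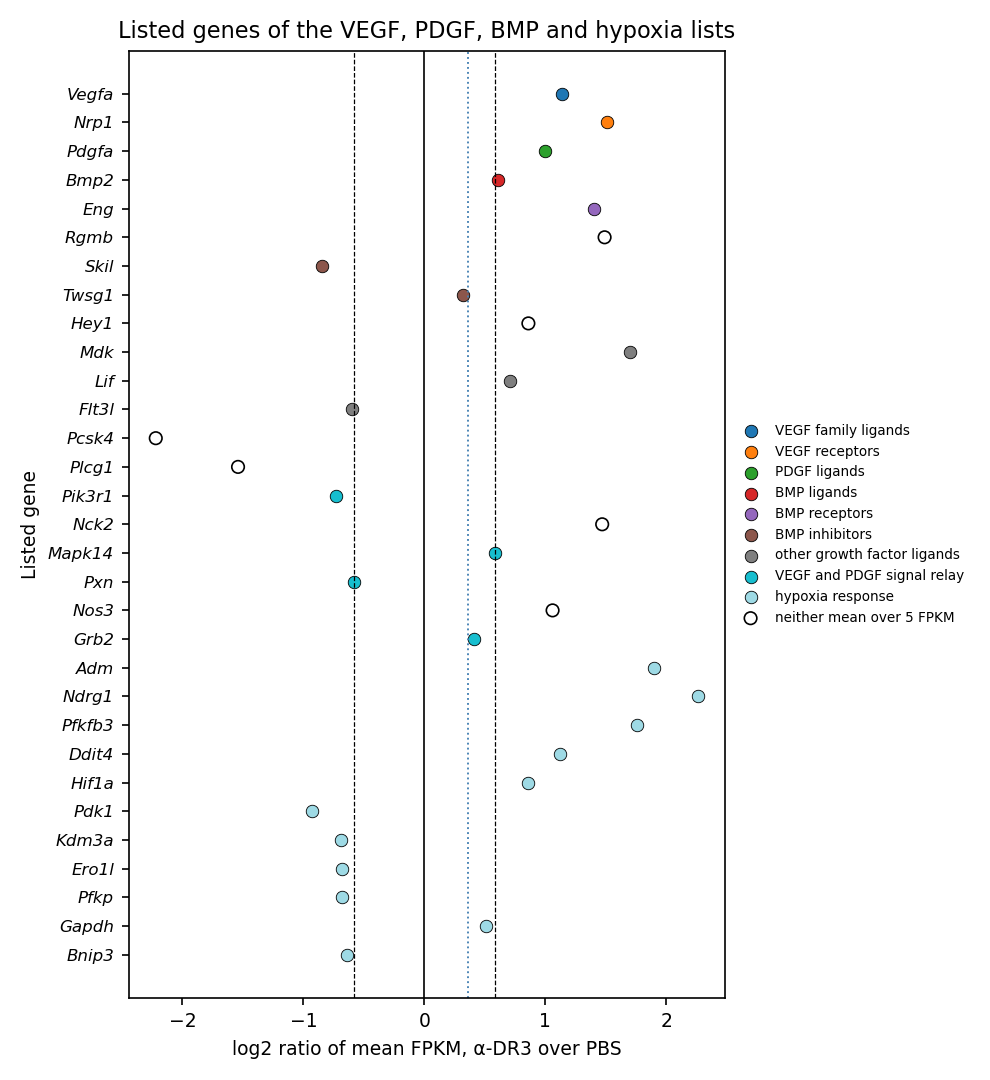
Points give the log2 ratio of mean FPKM, α-DR3 over PBS (x axis), for every listed gene of the VEGF, PDGF, BMP, growth factor, convertase, signal relay and hypoxia lists (rows, colored by list), with open circles for genes with neither mean over 5 FPKM, dashed lines at 1.5-fold either way and a dotted line at the median ratio of the 1638 genes. *Vegfa* at 1.14, *Pdgfa* at 1.00 and *Bmp2* at 0.61 lie on the higher side with *Nrp1* and *Eng*, and the hypoxia genes lie on both sides.

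Markers of other cell types moved with the group and are given here because fibroblasts, endothelial cells and myeloid cells also make these factors. The sort on lineage-negative, GFP+ cells is meant to leave such cells out. Of 17 ILC3 markers 9 were listed, and their summed means were 18742.8 FPKM in PBS and 46222.4 FPKM in α-DR3, most of it *Il22* at 17423.7 and 44536.6 FPKM. Of these 9, 8 were higher and 1 lower, and a further gene of the list is not reported here. By at least 1.5-fold 6 were higher and 1 lower, where 31.6% and 38.2% of the 1638 genes were. After *Il22*, at a ratio of 2.56, the highest ratio was that of *Ccr6*, 2.32. The lower marker was *Ncr1*, a receptor of an ILC3 subset, at 460.2 and 279.0 FPKM. *Tnfrsf25*, the gene of the antibody's target, was at 114.5 and 140.1 FPKM, a ratio of 1.22 that was 0.955 of the median ratio.

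All 10 of 25 myeloid and dendritic cell markers found by symbol were higher after α-DR3, where 1190 of the 2179 listed genes were. A further marker, *Adgre1*, was listed under its older symbol *Emr1*, at 0.19 and 1.175 FPKM, and is not in these counts and sums. The summed means of the 10 were 153.9 and 295.6 FPKM. *Ctss* made up most of both sums, and 6 of the 10 were under 1 FPKM in PBS. *Lyz2*, the lysozyme of macrophages and neutrophils, was at 4.08 and 37.9 FPKM and *Cd68* at 3.10 and 7.17 FPKM. Of 11 stromal markers other than *Thy1*, which ILC3s express as well, 7 were listed, all higher, with sums of 9.94 and 25.8 FPKM, the highest being *Dcn* at 3.16 and 8.69 FPKM.

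Of 10 endothelial markers 2 were listed, *Madcam1* at 0.260 and 9.03 FPKM and *Eng* as above, with a sum of 11.8 and 39.4 FPKM. Of 10 T and B cell markers 1 was listed, *Cd79b* at 10.9 and 27.2 FPKM, and none of 11 epithelial markers was. No listed marker was at 0 in either group. The part of other cells in the higher levels of *Vegfa*, *Pdgfa* and *Bmp2* was not tested.

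The 3 genes differ in how many transcripts share their reads. *Vegfa* lies on chromosome 17 from 46016993 to 46032369 on the minus strand (GRCm38), and GENCODE M21 gives it 13 transcripts, 8 of them coding, with 146 to 392 codons. Of the coding transcripts 5 begin at a codon other than ATG. *Pdgfa* lies on chromosome 5 from 138976014 to 138997370 on the minus strand, with 7 transcripts of which 4 are coding, with 196 or 211 codons. *Bmp2* lies on chromosome 2 from 133552159 to 133562885 on the plus strand and has 1 transcript of 3555 bases and 3 exons that encodes 394 codons.

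The average transcript length behind each FPKM follows from the table, since CPM, the read count scaled to library size only, divided by FPKM is a length in kilobases. The authors' mean CPM over all 4 libraries was 31.9 for *Vegfa*, 20.2 for *Pdgfa* and 80.9 for *Bmp2*. Set against the mean FPKM of both groups, this gives 2788 bases for *Vegfa*, 1151 bases for *Pdgfa* and 3544 bases for *Bmp2*. The *Bmp2* value is 99.7% of the gene length in the table, 3555 bases. For *Vegfa* it is 26.1% of a listed length of 10693 bases and for *Pdgfa* 22.0% of 5221 bases, both below the lower quartile of the 1638 genes (28.4%, with a median of 47.2%). Both listed lengths exceed the bases covered by all exons of the gene in GENCODE M21, 4285 for *Vegfa* and 3119 for *Pdgfa*. How the listed lengths were obtained is not known, so these shares do not show which transcripts were used. The *Vegfa* value lies within the range of its coding transcripts, 513 to 3451 bases, and the *Pdgfa* value is below that of its shortest coding transcript, 1287 bases. Each value covers all 4 libraries at once and cannot show a change of transcript use between the groups.

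**Figure D5:**
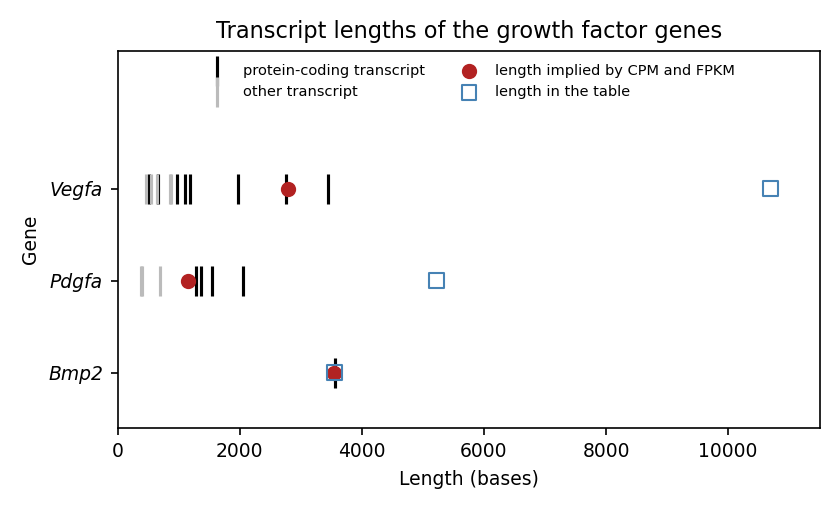
The x axis gives length in bases for each gene (rows), with black ticks for coding and grey ticks for other GENCODE M21 transcripts, a red point for the length implied by the authors' mean CPM and FPKM, and a blue square for the gene length in the table. The point and the square coincide for *Bmp2* (3544 and 3555 bases) and lie far apart for *Vegfa* (2788 and 10693) and *Pdgfa* (1151 and 5221).

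Promoter windows of *Vegfa* and *Pdgfa* are shown because these genes had the 2 highest ratios of the 3. They are RefSeq windows (GRCm38.p6) of 250 bases before a start site, and 2 of the 3 genes matched the set, with 4 windows. *Bmp2* had no entry. Capitals mark motif matches on either strand, and bases that are exonic in another transcript are left out.
Vegfa, chr17:46032378-46032627, minus strand: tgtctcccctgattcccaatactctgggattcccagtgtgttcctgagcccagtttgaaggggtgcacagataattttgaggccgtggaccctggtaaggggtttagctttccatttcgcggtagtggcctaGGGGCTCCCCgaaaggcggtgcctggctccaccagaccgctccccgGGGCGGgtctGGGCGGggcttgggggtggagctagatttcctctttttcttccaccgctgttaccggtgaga
Pdgfa, chr5:138995038-138995194, minus strand: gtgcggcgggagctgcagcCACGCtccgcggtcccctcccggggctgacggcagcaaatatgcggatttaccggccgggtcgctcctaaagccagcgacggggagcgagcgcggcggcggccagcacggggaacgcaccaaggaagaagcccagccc
The *Vegfa* window holds a match to the κB consensus 118 bases before the start and GC boxes (GGGCGG) 72 and 62 bases before it. The printed part of the *Pdgfa* window holds GCGTG, a core of the hypoxia response element, on the other strand 231 bases before the start. Its unprinted part, the 93 bases next to the start, holds GC boxes 93 and 86 bases and a κB match 49 bases before it, all on the other strand.

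These motifs are common in promoters. Of 32851 RefSeq windows 32.7% held a GC box, 28.2% the core GCGTG and 5.0% a κB match. The other core of the hypoxia response element, ACGTG, was in 16.6%. The other window of *Vegfa*, at a start within the gene, held both cores and a GC box, and that of *Pdgfa* held a GC box. Both *Pdgfa* starts, at 138994944 (printed window) and 138994281, also lie within the gene, which begins at 138997370 on the minus strand. None of the 4 windows held the AP-1 motif TGANTCA, found in 6.75% of all windows, or the cAMP response element TGACGTCA, found in 1.55%. The same was true of the TATA box TATAAA, found in 12.4% of all windows, and of the E box CACGTG, found in 6.02%. GC content was 59.2% in the *Vegfa* window and 72.4% in the *Pdgfa* window, where the median window had 52.4%. A match shows only that these letters are present in the window.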

How the data were processed

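RNA-seq of sorted large intestinal ILC3s was analysed, with 2 PBS and 2 α-DR3 libraries. The authors mapped reads with STAR 2.5 to GRCm38.p5, quantified genes with RSEM 1.2 on GENCODE and compared groups with edgeR 3.18.1. Their deposited table holds FPKM as group means, of which the column named wt was read as PBS because the series has no other control, and a log2 mean CPM over all libraries. Its fold changes, likelihood ratios, p-values and FDR are the authors' own comparison and were not used. Depth is unknown and no error could be computed. Ratios of mean FPKM were formed without a pseudocount, after a filter of a mean above 5 FPKM in either group, with a limit of 1.5-fold. The arithmetic was tested on simulated data. GENCODE M21 differs from the table in the version of the *Vegfa* and *Pdgfa* identifiers. Named genes were the members, listed genes of the VEGF, PDGF and BMP lists, up to 8 past the limit from longer lists, and the 3 genes nearest each member. *Pcsk4*, below the filter, and *Tnfrsf25*, the target of the antibody, were added after their values were seen. One gene of the ILC3 list is not reported here. The members and lists were chosen with earlier results of these data known. Scripts used Python 3.11.15, numpy 2.4.6, pandas 2.3.3, Biopython 1.88 and matplotlib 3.10.9. Alternatives were pseudocounts of 0.1, 1 and 5, other filters, a 2-fold limit and 3 scalings.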

Additional observations from a re-analysis of the deposited data

How the results depend on the processing

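No member changed direction under any alternative run. Under every pseudocount and scaling *Vegfa* stayed at or above 1.56 and past 1.5-fold. *Pdgfa* passed 1.5-fold under all of them but division by the sum of listed FPKM (1.42). Only *Vegfa* of the members passed a 2-fold limit, *Pdgfa* being just below it. *Bmp2* was below the limit with a pseudocount of 1 (1.49) or 5 (1.41), and after division by the median ratio (1.19), by the sum of listed FPKM (1.08) or by that sum without *Il22* (1.28), the last chosen after seeing the data. As deposited, 517 genes were past the limit upwards and 625 downwards. With a pseudocount of 5 these were 343 and 283 (54.8% higher). Those higher were 253 after division by the median ratio, 197 by the sum (20.5% of the genes past the limit were higher), 319 by the sum without *Il22* (29.8%), 808 without a filter or with one of 1 FPKM, and 228 at 2-fold (61.1%), where 145 were lower. Of the growth factor ligands, 5 higher and 1 lower became 3 higher with a pseudocount of 5, the median ratio or the sum without *Il22*, and 2 higher with the sum or at 2-fold. The lower one was no longer past the limit with a pseudocount of 1 or 5 or at 2-fold, which left 0. Of 54 values recomputed, 31 were ratios on the same side of the limit or counts within 1.5 times the one reported, 17 were counts that moved further and 6 were ratios that lost the limit. These alternatives act on group means only. No paired analysis was possible because the table holds group means, and for the same reason no library was left out in turn. Counts near the limit depend on library noise that the means do not show.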
